A study of Mus musculus with 4 samples.

Results

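Heat shock proteins and their DNAJ cochaperones, the folding machinery that cells make more of under heat and other stress, were examined in endothelial cells of the adult mouse heart. Members were all genes whose array probe maps through its accession, by RefSeq, to a symbol that begins with Hspa, Hspb, Hsp90, Dnaja, Dnajb or Dnajc, or to Hspd1, Hspe1 or Hsph1. The rule uses names only and found 73 genes on 122 probes, of 18353 genes named on the array. RefSeq holds 78 symbols of this kind, and Dnajb5 and the pseudogenes Dnaja1-ps, Dnajb6-ps, Dnajc19-ps and Hspa9-ps1 were matched to no probe and are not analysed here. They comprise 14 genes of the HSP70 and HSP110 group, 3 of HSP90, 2 of the mitochondrial chaperonin, 7 small heat shock proteins, 3 further genes with an Hspb symbol, 4 DNAJA, 12 DNAJB and 28 DNAJC genes.

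The study isolated endothelial cells from hearts of wild type mice (control, 2 arrays) and of mice labelled G2-EC-KO, which the labels also describe as Gata2 knock out (2 arrays), both adult and with no treatment named. Each sample's total RNA was hybridised to 1 Agilent 1-colour array. What drives the deletion, which bases it removes and whether animals were pooled are not given in the sources used here, nor is whether replicates came from separate animals, so the p-values reflect only the variation among these 4 samples, and part of it may be technical. The single comparison asks how the transcripts of these cells differ between G2-EC-KO and control.

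HSP70 proteins hold unfolded stretches of protein in a cycle driven by ATP. J-domain proteins, the DNAJ family, bring clients to HSP70 and start its ATPase, exchange factors such as the HSP110 proteins end the cycle, HSP90 takes over clients near their final fold, and small heat shock proteins keep unfolded proteins from clumping without ATP. Heat, and the dissociation of tissue into cells, induces a subset of these genes through heat shock factors, while the endoplasmic reticulum and the mitochondrion each carry a set of their own.

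Levels below are log2 of the processed spot signal above the 75th percentile of the array, so 0 is the signal that 75 percent of spots do not exceed, and levels of different probes are not comparable. Differences are G2-EC-KO minus control in log2, from limma, with its standard error (SE, n = 2 arrays in each group) and p-values adjusted by Benjamini-Hochberg over all 26894 probes tested. A gene with several probes is given by the one with the highest mean over the 4 arrays. Probes well above background made up 63.8% to 66.6% of all probes on the arrays, and 0 spots were saturated. All 13 endothelial markers listed, among them Pecam1 and Cdh5, were well above background on all 4 arrays. So were all 20 cardiomyocyte markers, whose summed linear signal, in multiples of the 75th percentile, was 137 and 136 in control and 141 and 201 in G2-EC-KO. Differences were above 0 for all 14 macrophage markers tested (median 0.33), of which Ccr2 entered the test only through its G2-EC-KO arrays, for all 11 blood markers tested (median 0.30), 11 of 12 fibroblast markers (median 0.24), 2 of 11 pericyte and smooth muscle markers (median -0.15) and 7 of 13 endothelial markers (median 0.0066). The limma test called 0 of them, and an unadjusted p under 0.05 was reached by 2 macrophage (Ccr2 among them), 2 fibroblast and 2 cardiomyocyte markers. The summed signal of the blood markers was 203 and 171 in control and 327 and 173 in G2-EC-KO, where replicate 1 stood above the other arrays. That of the macrophage markers was 15.4 and 21.6 in control and 23.4 and 20.8 in G2-EC-KO, with control replicate 1 below the other arrays. The median macrophage difference ran from 0.037 to 0.61 when 1 array was left out. The probe of Gata2 itself read 1.86 and 2.17 in control and 2.17 and 2.46 in G2-EC-KO (difference 0.29, SE 0.18; limma, adjusted p = 0.586), so it was not lower there, and since its place relative to the deleted part is not known it checks nothing.

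No member passed the threshold, an adjusted p under 0.05 by limma, while 1 of 26894 probes (0.00372%) did over the whole array. Of the 73 members, 66 were measured well enough to be tested, 65 of them on all 4 arrays. Their differences ran from -0.35 for Dnajc27 to 0.70 for Dnajc22, and 65 of 66 were smaller than 1.5-fold. Without adjustment, p was under 0.05 for 5 members higher in G2-EC-KO (7.58%, against 6.13% of the 13624 named genes tested) and for 1 lower (1.52%, against 2.06%). Both shares were near those of the whole array, and 1 of the 5, Dnajc22, entered the test only through its G2-EC-KO arrays. With 2 arrays in a group the median 95% confidence interval of a member reached 0.32 to either side, and 60 of 66 intervals included 0.

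Most members nonetheless read slightly higher on the G2-EC-KO arrays, as most genes did. The difference was above 0 in 46 of 66 members (69.7%), against 58.1% of all named genes tested, and its median was 0.11, against 0.041. In 28 members (42.4%) both G2-EC-KO arrays lay above both control arrays, and in 9 (13.6%) both lay below. Over all named genes tested these shares were 30.4% and 16.7%. G2-EC-KO replicate 2 lay farther from the control mean than replicate 1 in 51 of 66 members (77.3%, against 69.4% of all genes). The 2 control arrays differed by a median of 0.070 for the members and 0.11 for all genes, the G2-EC-KO arrays by 0.12 and 0.17, and in 26 of 66 members (39.4%, against 31.1% of all genes) the difference between groups was larger than both. The median absolute difference between groups was 0.14, for the members as for all genes.

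Promoter sequence was read to show which members carry the regulatory elements of the heat and the endoplasmic reticulum stress responses. RefSeq (GRCm38.p6) gave a promoter for 59 of the 73 members, and the 250 bases before each start were searched on both strands. The other 14, among them Hsp90aa1, Hsp90ab1, Hspa8 and Hspa9, were not searched. The heat shock element searched has 3 alternating units, GAANNTTC followed after 2 further bases by GAA, or the same on the other strand. It occurred in 3 members (5.08%), Hspd1, Hspe1 and Dnajb6, against 139 of 27025 genes with a promoter (0.514%). The endoplasmic reticulum stress element, CCAAT and CCACG 9 bases apart, occurred in 3 others (5.08%), Hspa5, Hsp90b1 and Dnajc3, against 35 genes (0.130%). The matched units are in capitals below, with the flanking bases in lower case, each 5′ to 3′ on the strand of its gene.
Hspe1: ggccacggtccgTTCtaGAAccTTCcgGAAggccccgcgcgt
Dnajb6: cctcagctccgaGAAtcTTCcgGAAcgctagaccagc
Hspa5: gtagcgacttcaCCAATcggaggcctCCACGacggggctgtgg
Dnajc3: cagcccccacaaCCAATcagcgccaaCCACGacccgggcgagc
Hsp90b1, farther from the start: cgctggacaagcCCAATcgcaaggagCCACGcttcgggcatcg
Hsp90b1, nearer to the start: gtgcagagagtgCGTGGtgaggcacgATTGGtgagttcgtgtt

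The Hspe1 stretch lies at chr1:55088047-55088088 (plus strand), with 2 overlapping elements 89 to 72 bases before the start. The same bases, read on the minus strand, lie 144 to 127 bases before the start of Hspd1, since the genes of both chaperonin subunits start head to head. That of Dnajb6 lies at chr5:29735840-29735876 (plus strand), with its element 46 to 34 bases before the start. The stress element of Hspa5 is at chr2:34772013-34772055 (plus strand, 65 to 47 bases before the start) and that of Dnajc3 at chr14:118937815-118937857 (plus strand). Hsp90b1 holds one in each orientation, at chr10:86705626-86705668 and chr10:86705521-86705563 (minus strand). The differences of the 3 members with a heat shock element were -0.14, 0.13 and 0.32, with a median of 0.13. The median was 0.071 over the 50 tested members whose promoter was searched and held none. With the stress element the differences were -0.17, -0.0029 and 0.14, with a median of -0.0029, against 0.090 in the 50 searched without it. Members with either element thus lay on both sides of 0. Hspa1a, Hspa1b, Hsph1, Dnajb1 and Hspb1 had no match in this window, which says only that these exact letters are not in it.

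Hsp90aa1, a heat-inducible cytosolic gene that lay above 0 without overlap, is given with HSP90 below. The other heat-inducible cytosolic genes picked here lay above 0 at their brightest probes, apart from Hspa1b. The groups overlapped in all of these but Dnajb1, and none was called. They are Hspa1a and Hspa1b, near-identical neighbouring copies of inducible HSP70 that probes may not tell apart, the HSP110 exchange factor Hsph1, the J-protein Dnajb1 that partners HSP70 in the heat response, and the small heat shock protein Hspb1. Hspa1a read 7.08 and 6.74 in control and 7.06 and 6.88 in G2-EC-KO, and Hspa1b read 5.17 and 4.78 in control and 4.96 and 4.85 in G2-EC-KO. Hsph1 read 3.35 and 2.76 in control and 3.15 and 3.20 in G2-EC-KO. At the brightest probe of all 3 genes control replicate 1 was the highest array and control replicate 2 the lowest. At the second Hspa1b probe G2-EC-KO replicate 2 was the lowest array instead. The difference was 0.064 for Hspa1a (SE 0.16; limma, adjusted p = 0.890), with a 95% confidence interval of -0.37 to 0.50. For Hspa1b it was -0.069 (SE 0.17; limma, adjusted p = 0.884) and for Hsph1 0.12 (SE 0.22; limma, adjusted p = 0.850). The second probes of Hspa1a and Hspa1b gave 0.037 and -0.31. Control replicate 2 lay below control replicate 1 by 0.34, 0.39 and 0.59 in Hspa1a, Hspa1b and Hsph1, and the gap in Hsph1 was the widest between control arrays among the 66 members tested. Hspb1 read 6.36 and 6.39 in control and 6.37 and 6.42 in G2-EC-KO, with all 4 arrays close together. Dnajb1 read 6.47 and 6.39 in control and 6.51 and 6.58 in G2-EC-KO, and its second probe read 4.30 and 4.32 in control and 4.19 and 4.03 in G2-EC-KO. The brighter Dnajb1 probe gave a difference of 0.12 (SE 0.11) and the dimmer one -0.20 (SE 0.12), opposite in sign by more than the SE of either. At the brightest probes, Hspa1b alone of these genes lay below 0, and Hspb1 was at 0.020 (SE 0.11).

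**Figure D1:**
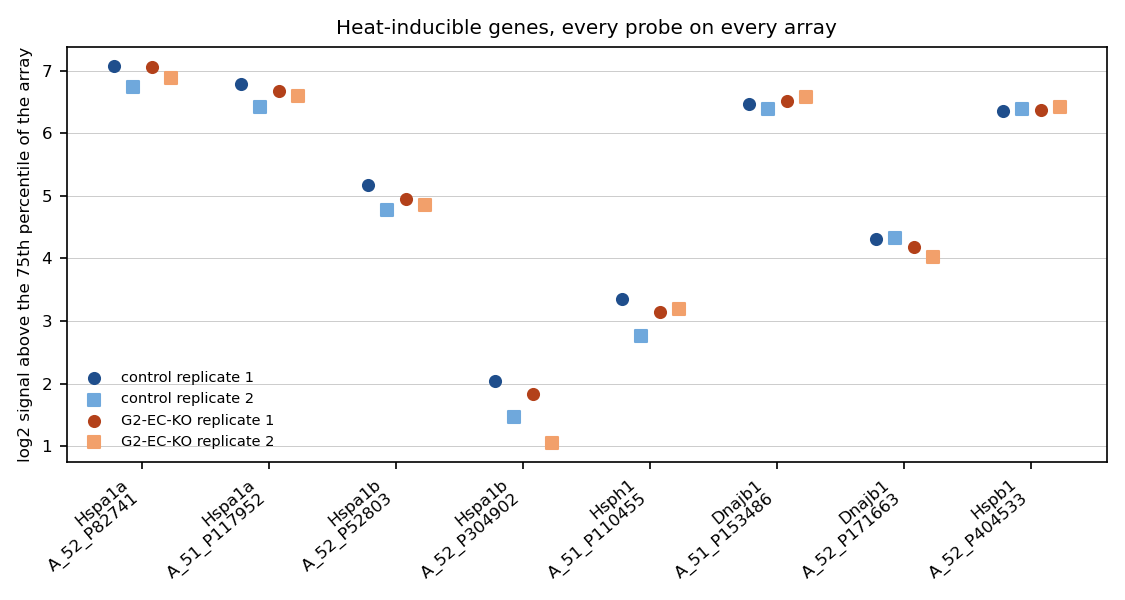
Every probe of 5 heat-inducible genes, without Hsp90aa1, on every array. The vertical axis is log2 signal above the 75th percentile of the array, with control in blue and G2-EC-KO in orange. The groups overlap at both Hspa1a probes, both Hspa1b probes, Hsph1 and Hspb1, and the Dnajb1 probes separate the groups in opposite directions.

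Across the whole HSP70 and HSP110 group, 9 of 14 differences were above 0 and 5 below, with a median of 0.090. Hspa8, the constitutive HSP70 of the cytosol, read 6.92 and 7.09 in control and 7.12 and 7.23 in G2-EC-KO. Both G2-EC-KO arrays were higher there, with a difference of 0.17 (SE 0.12), but the second Hspa8 probe gave -0.059. Hspa4l, an HSP110 exchange factor, had the smallest p of the group: -1.54 and -1.64 in control and -1.40 and -1.31 in G2-EC-KO, a difference of 0.24 (SE 0.11; limma, adjusted p = 0.548), and its other probes gave 0.19 and 0.16. The groups did not overlap at this probe. Hspa4, a related exchange factor, gave -0.18 at its brightest probe (1.84 and 1.77 in control against 1.74 and 1.5 in G2-EC-KO), and 0.34 and -0.30 at the other 2, so its probes did not give one direction.

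Hspa14, an HSP70 that works at the ribosome, read 2.94 and 2.98 in control and 3.1 and 3.26 in G2-EC-KO (difference 0.21, SE 0.12), without overlap. Dnajc2, its J-protein partner on the ribosome, read 0.40 and 0.24 in control and 0.35 and 0.057 in G2-EC-KO, with overlap. Hspa2, an HSP70 best known from the testis, read 2.61 and 2.75 in control and 2.62 and 2.35 in G2-EC-KO (difference -0.20, SE 0.15), and its second probe gave -0.26. Hspa1l, another such gene, was dim, at -4.24 and -4.32 in control and -4.19 and -4.12 in G2-EC-KO (difference 0.13, SE 0.11). Hspa12b, an atypical HSP70 known from endothelium, read 3.23 and 3.29 in control and 3.27 and 3.91 in G2-EC-KO. Only G2-EC-KO replicate 2 stood above the rest, and the difference of 0.33 (SE 0.24) became 0.012 without that array. Its paralogue Hspa12a was split the other way, at -1.02 and -0.93 in control and -0.74 and -1.65 in G2-EC-KO, where replicate 2 was the lowest array. Its other probes disagreed: at one the G2-EC-KO arrays read -3.40 and -2.24, with replicate 1 lowest and replicate 2 highest (difference 0.011), and at the other -2.51 and -3.46 (difference -0.39).

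All 3 genes with an Hsp90 symbol read higher on both G2-EC-KO arrays than on either control array, by amounts the test did not call. Of all named genes tested, 30.4% separate in this direction. Trap1, the mitochondrial HSP90, is no member by its symbol and went the other way, at -0.14 without overlap. Hsp90aa1, the inducible cytosolic form, read 5.67 and 5.64 in control and 5.82 and 5.72 in G2-EC-KO (difference 0.11, SE 0.11; limma, adjusted p = 0.696). Hsp90ab1, the constitutive form, read 5.71 and 5.65 in control and 5.80 and 5.91 in G2-EC-KO (difference 0.18, SE 0.11; limma, adjusted p = 0.600). Hsp90b1, GRP94 of the endoplasmic reticulum, read 5.02 and 5.21 in control and 5.22 and 5.29 in G2-EC-KO (difference 0.14, SE 0.12; limma, adjusted p = 0.679). The second probes of the last pair gave an opposite and a smaller value: that of Hsp90ab1 was -0.20 (SE 0.16) and that of Hsp90b1 0.021. With the probes of a gene averaged, 2 of the 3 genes were above 0 and the median was 0.080 instead of 0.14.

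The 8 members grouped here under the mitochondrion all had differences above 0, with a median of 0.19, and in 6 of them the groups did not overlap. The grouping may be incomplete: Dnajc4 (difference -0.019) and Dnajc28 (0.29), both with overlap, were not placed in it. Over all named genes tested 58.1% lay above 0 and 30.4% separated upward, and since this grouping was made after the values were seen, its counts are a description only. Hspe1 and Hspd1 are the lid and the barrel of the chaperonin that folds imported proteins, and the pair with the shared promoter element. Hspe1 read 2.10 and 2.07 in control and 2.30 and 2.51 in G2-EC-KO. Hspd1 read 3.64 and 3.63 in control and 3.77 and 3.76 in G2-EC-KO. The difference was 0.32 for Hspe1 (SE 0.13, 95% confidence interval -0.012 to 0.65; limma, adjusted p = 0.526) and 0.13 for Hspd1 (SE 0.10; limma, adjusted p = 0.650). Both G2-EC-KO arrays were above both control arrays in either gene, and the second Hspd1 probe gave 0.021.

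Dnajc15 and Dnajc19 are J-proteins of the import motor of the inner membrane. Dnajc15 read 1.40 and 1.49 in control and 1.69 and 1.82 in G2-EC-KO. Dnajc19 read 2.86 and 2.92 in control and 3.01 and 3.13 in G2-EC-KO. In both genes the groups did not overlap, with differences of 0.31 (SE 0.12; limma, adjusted p = 0.519) and 0.18 (SE 0.11). Dnaja3, the J-protein of the matrix, read 0.63 and 0.63 in control and 0.76 and 1.10 in G2-EC-KO (difference 0.31, SE 0.15), also without overlap, and its second probe gave 0.14. Dnajc30 (difference 0.19) separated the groups as well, while Dnajc11 (difference 0.16) overlapped. Hspa9, the HSP70 of the matrix, read 3.16 and 3.19 in control and 3.31 and 3.1 in G2-EC-KO, with overlap. Its difference was 0.027, the second probe gave -0.18, and with its probes averaged Hspa9 lay at -0.075, below 0. The list of other mitochondrial chaperones and proteases, which are no members, had 4 of 9 differences above 0 and 5 below. Their median was -0.0039, with 0 called by limma or at an unadjusted p under 0.05. This list leaves out the mitochondrial exchange factors Grpel1 and Grpel2, which are counted with the HSP70 cochaperones below. Grpel1 gave 0.15 without overlap and Grpel2 0.22 with overlap. Clpp gave 0.20 with overlap, and Htra2 0.18 and Clpb 0.13, both without overlap. Trap1, the mitochondrial HSP90, gave -0.14 and the protease Lonp1 -0.13, also without overlap. The groups thus separated upward in 2 of the 9 (22.2%) and downward in 2 (22.2%), against 30.4% and 16.7% of all named genes tested. Whether these listed genes differ from the members was not tested. The median of the 8 members ran from 0.13 to 0.31 when 1 array was left out.

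The 8 members grouped here as working inside the endoplasmic reticulum had no common direction, with 4 differences above 0, 4 below and a median of 0.025. Hspa5 is BiP, the HSP70 of this compartment and the usual readout of its stress response. Hspa5 read 6.29 and 6.49 in control and 6.42 and 6.36 in G2-EC-KO, and the difference was -0.0029 (SE 0.13, 95% confidence interval -0.33 to 0.33). Control replicate 1 was the lowest array and control replicate 2 the highest, with both G2-EC-KO arrays between. Dnajb11, a lumenal J-protein of BiP, read 2.30 and 2.45 in control and 2.66 and 2.80 in G2-EC-KO, without overlap (difference 0.36, SE 0.12, 95% confidence interval 0.028 to 0.69; limma, adjusted p = 0.511). Hspa13, an HSP70 of microsomes, read 0.48 and 0.52 in control and 0.66 and 0.63 in G2-EC-KO (difference 0.14, SE 0.11). Dnajc10, which also reduces disulfide bonds, read 1.70 and 1.81 in control and 1.78 and 1.83 in G2-EC-KO, with overlap.

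Dnajb9 and Dnajc3, which dampen stress signalling from this compartment, lay on the other side at their brightest probes. Dnajb9 read 3.88 and 3.95 in control and 3.88 and 3.62 in G2-EC-KO (difference -0.16, SE 0.14), with overlap. Its other probes differed in sign, at -0.19 without overlap and 0.075 with overlap. Dnajc3 read 2.70 and 2.71 in control and 2.63 and 2.44 in G2-EC-KO, without overlap (difference -0.17, SE 0.12), while the other 3 Dnajc3 probes gave 0.099, -0.19 and -0.044. Dnajc1, a J-protein of the membrane, had a difference of -0.11, also without overlap. Of 21 other genes of the unfolded protein response with a probe, 11 were above 0 and 10 below, with a median of 0.036. The limma test called 0, and 3 had an unadjusted p under 0.05. Sdf2l1, a partner of lumenal J-proteins, had the smallest p of them, with -1.12 and -0.91 in control and -0.44 and -0.18 in G2-EC-KO (difference 0.71, SE 0.15; limma, adjusted p = 0.387). Creld2 with 0.40 and Manf with 0.36, secreted or lumenal products of the same response, followed, and these are the 3 genes just counted, each without overlap.

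**Figure D2:**
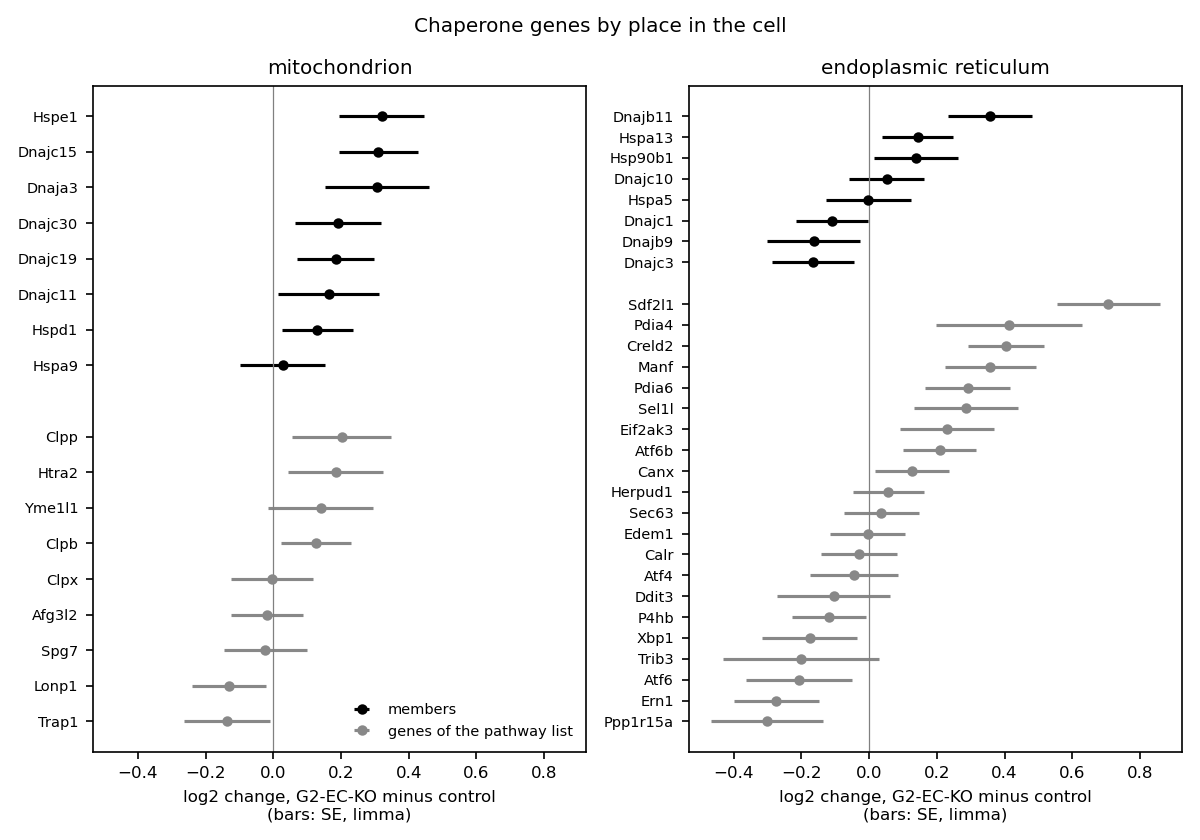
Log2 difference (horizontal axis, bars are SE from limma) of the members grouped under the mitochondrion (left) and the endoplasmic reticulum (right). Members are in black. Grey marks the listed mitochondrial chaperones and proteases, without Grpel1 and Grpel2, and the listed genes of the unfolded protein response. At the brightest probe all 8 members of the mitochondrial group lie above 0, from 0.027 for Hspa9 to 0.32 for Hspe1. Those of the endoplasmic reticulum group lie on both sides, from -0.17 for Dnajc3 to 0.36 for Dnajb11.

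Of the 7 small heat shock proteins, 6 had a difference above 0 and 1 below, with a median of 0.11. Hspb7, of heart muscle, read -0.96 and -1.01 in control and -0.88 and -0.59 in G2-EC-KO, without overlap (difference 0.25, SE 0.14), and its second probe gave 0.31. Hspb2, of muscle too, read 1.26 and 1.11 in control and 1.32 and 1.27 in G2-EC-KO (difference 0.11, SE 0.12), without overlap, and its second probe gave 0.39. Hspb3, their muscle relative, was dim and read -4.06 and -3.98 in control and -4.03 and -2.85 in G2-EC-KO. Its difference of 0.58 (SE 0.40) came from G2-EC-KO replicate 2, without which it was -0.013. That array also had the highest summed signal of the cardiomyocyte markers, 201 against 136 to 141 on the other arrays, and all 20 of those markers had differences above 0, with a median of 0.36. Cryab, a small heat shock protein abundant in heart muscle that is no member by its symbol, read 2.09 and 2.02 in control and 2.12 and 2.46 in G2-EC-KO (difference 0.24, SE 0.15). The part of muscle RNA in these differences was not tested, and fewer cells of a type and less RNA per cell cannot be told apart in bulk samples.

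Hspb8, which works with the exchange factor Bag3 in clearing misfolded proteins, read 0.96 and 0.98 in control and 1.09 and 1.18 in G2-EC-KO (difference 0.17, SE 0.11). Hspb6 read -1.15 and -1.16 in control and -1.07 and -1.02 in G2-EC-KO (difference 0.11, SE 0.11). Neither gene's groups overlapped. Hspb9, known from the testis, was the one lower, at -2.91 and -2.90 in control and -3.12 and -3.13 in G2-EC-KO (difference -0.22, SE 0.10; limma, adjusted p = 0.548), and its within-group differences were 0.0070 and -0.012. The remaining 3 genes carry an Hspb symbol without being small heat shock proteins. Hspb11, an intraflagellar transport subunit, read -0.21 and -0.087 in control and 0.12 and 0.26 in G2-EC-KO (difference 0.34, SE 0.12, 95% confidence interval 0.018 to 0.66; limma, adjusted p = 0.512), without overlap. Hspbp1, an exchange factor of HSP70, gave 0.035, and Hspbap1 gave 0.19, where G2-EC-KO replicate 2 stood above the other arrays.

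**Figure D3:**
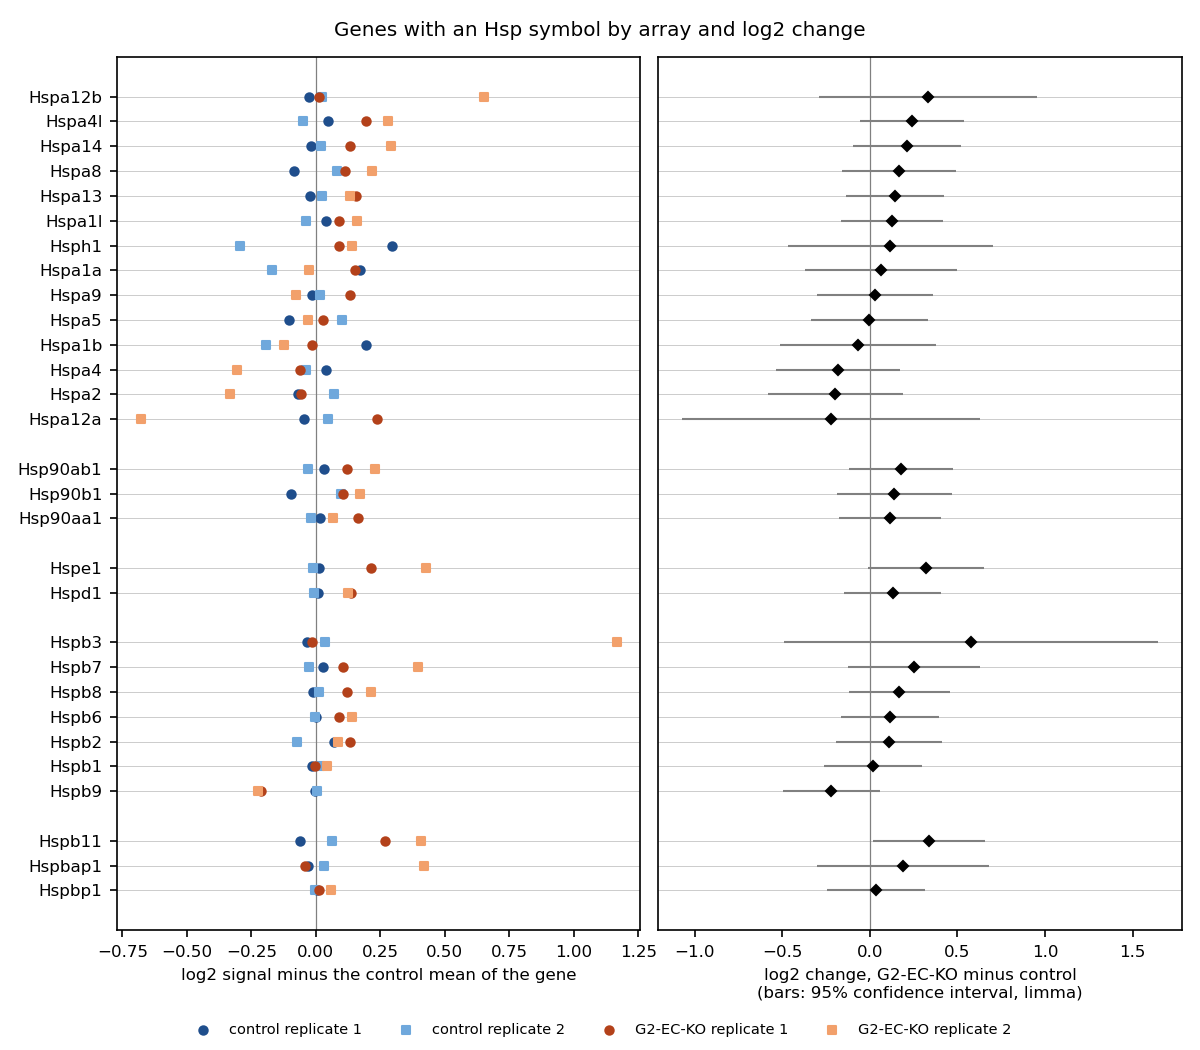
The 29 genes with an Hsp symbol by family, of which Hspb11, Hspbp1 and Hspbap1 are no small heat shock proteins, with each array's log2 signal minus the gene's control mean (left, control in blue and G2-EC-KO in orange) and the log2 difference with its 95% confidence interval from limma (right). The interval of Hspb11 is the one that leaves out 0, and the widest scatter between the G2-EC-KO arrays is at Hspb3 and Hspa12a.

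The DNAJ genes, by class, showed no common direction. Of 4 DNAJA genes 3 lay above 0 (median 0.077), and of 8 DNAJB genes tested 3 lay above and 5 below (median -0.11, and 0.0051 without G2-EC-KO replicate 2). Of 25 DNAJC genes tested 17 lay above and 8 below (median 0.052). Dnaja1 and Dnaja2 are general partners of cytosolic HSP70. Dnaja1 read 6.0 and 5.93 in control and 6.07 and 5.97 in G2-EC-KO. Dnaja2 read 1.90 and 2.06 in control and 2.05 and 2.12 in G2-EC-KO. Their differences were 0.050 (SE 0.11) and 0.10 (SE 0.12), the groups overlapped in both genes, and the 2 dimmer Dnaja1 probes gave -0.13 and -0.15. Dnaja4 read 1.81 and 1.63 in control and 1.57 and 1.79 in G2-EC-KO, also with overlap.

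Dnajb4 overlapped too, at 2.44 and 2.26 in control and 2.51 and 2.34 in G2-EC-KO (difference 0.076, SE 0.13). Dnajb6, which keeps proteins from aggregating and carries a heat shock element, read 3.5 and 3.42 in control and 3.5 and 3.14 in G2-EC-KO (difference -0.14, SE 0.16), and its other probes gave -0.11 and -0.36. G2-EC-KO replicate 2 was the lowest array at each Dnajb6 probe, while replicate 1 stayed close to the control arrays. Dnajb2, which passes clients to degradation, read 1.37 and 1.30 in control and 1.26 and 1.06 in G2-EC-KO (difference -0.18, SE 0.12), without overlap. Dnajb12, a J-protein of the endoplasmic reticulum membrane that faces the cytosol, had the smallest p among the DNAJB genes with a negative difference, at -1.45 and -1.43 in control and -1.63 and -1.67 in G2-EC-KO (difference -0.21, SE 0.10; limma, adjusted p = 0.556).

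Among the DNAJC genes, Dnajc9, a J-protein that also chaperones histones, showed a similar difference at both of its probes. The brighter read 1.65 and 1.58 in control and 1.98 and 2.13 in G2-EC-KO, a difference of 0.44 (SE 0.12, 95% confidence interval 0.13 to 0.75; limma, adjusted p = 0.435). At the dimmer the levels were -1.96 and -2.0 in control and -1.70 and -1.44 in G2-EC-KO, a difference of 0.41 (SE 0.13). Neither probe's groups overlapped. Cell cycle genes differed the same way on these arrays: 26 of 28 had a difference above 0, with a median of 1.45, their median level was -0.70 and -1.02 in control and 0.18 and 0.76 in G2-EC-KO, and limma called 0 of them, with 23 at an unadjusted p under 0.05. Their part in the Dnajc9 difference was not tested.

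Dnajc27, which joins a J domain to a small GTPase, was the member lowest in G2-EC-KO relative to control. It read 0.13 and 0.15 in control and -0.16 and -0.27 in G2-EC-KO, a difference of -0.35 (SE 0.11, 95% confidence interval -0.64 to -0.061; limma, adjusted p = 0.477). Here both G2-EC-KO arrays lay below both control arrays, and its other probes gave -0.45 and -0.17. Dnajc5, the cysteine string protein of secretory vesicles, read 3.07 and 3.1 in control and 2.93 and 2.76 in G2-EC-KO (difference -0.24, SE 0.12), and its second probe gave -0.26, with both G2-EC-KO arrays lower at either probe. Dnajc7, a cochaperone of both HSP70 and HSP90, read 1.33 and 1.30 in control and 1.36 and 1.39 in G2-EC-KO (difference 0.065, SE 0.10).

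Dnajc22 had the smallest p of all members and the least certain level. Neither control array had it well above background, and both G2-EC-KO arrays did, so it passed the filter only through the group where it is high. It read -6.03 and -6.33 in control and -5.36 and -5.60 in G2-EC-KO, which bounds it at least 1.09-fold higher there, taking the dim side per array as the higher of its own signal and the lowest signal well above background. The fitted difference was 0.70 (SE 0.16; limma, adjusted p = 0.398), and 0.26 with normexp background correction. The 7 members not tested were Dnajb3 and Dnajc6, the auxilin that uncoats vesicles, each well above background on 1 array, and Dnajb7, Dnajb8, Dnajb13, Dnajc5b and Dnajc5g, on 0 arrays. The other 12 DNAJC genes tested, counting Dnajc4 and Dnajc28 again, and Dnajb14 lay between -0.082 for Dnajb14 and 0.29 for Dnajc28. Among them were the spliceosome-associated Dnajc8 (0.16) and the endosomal Dnajc13 (0.0072). The groups did not overlap in Dnajc8, and Dnajc14 gave 0.015 at its brighter and 0.55 (SE 0.13) at its dim second probe.

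**Figure D4:**
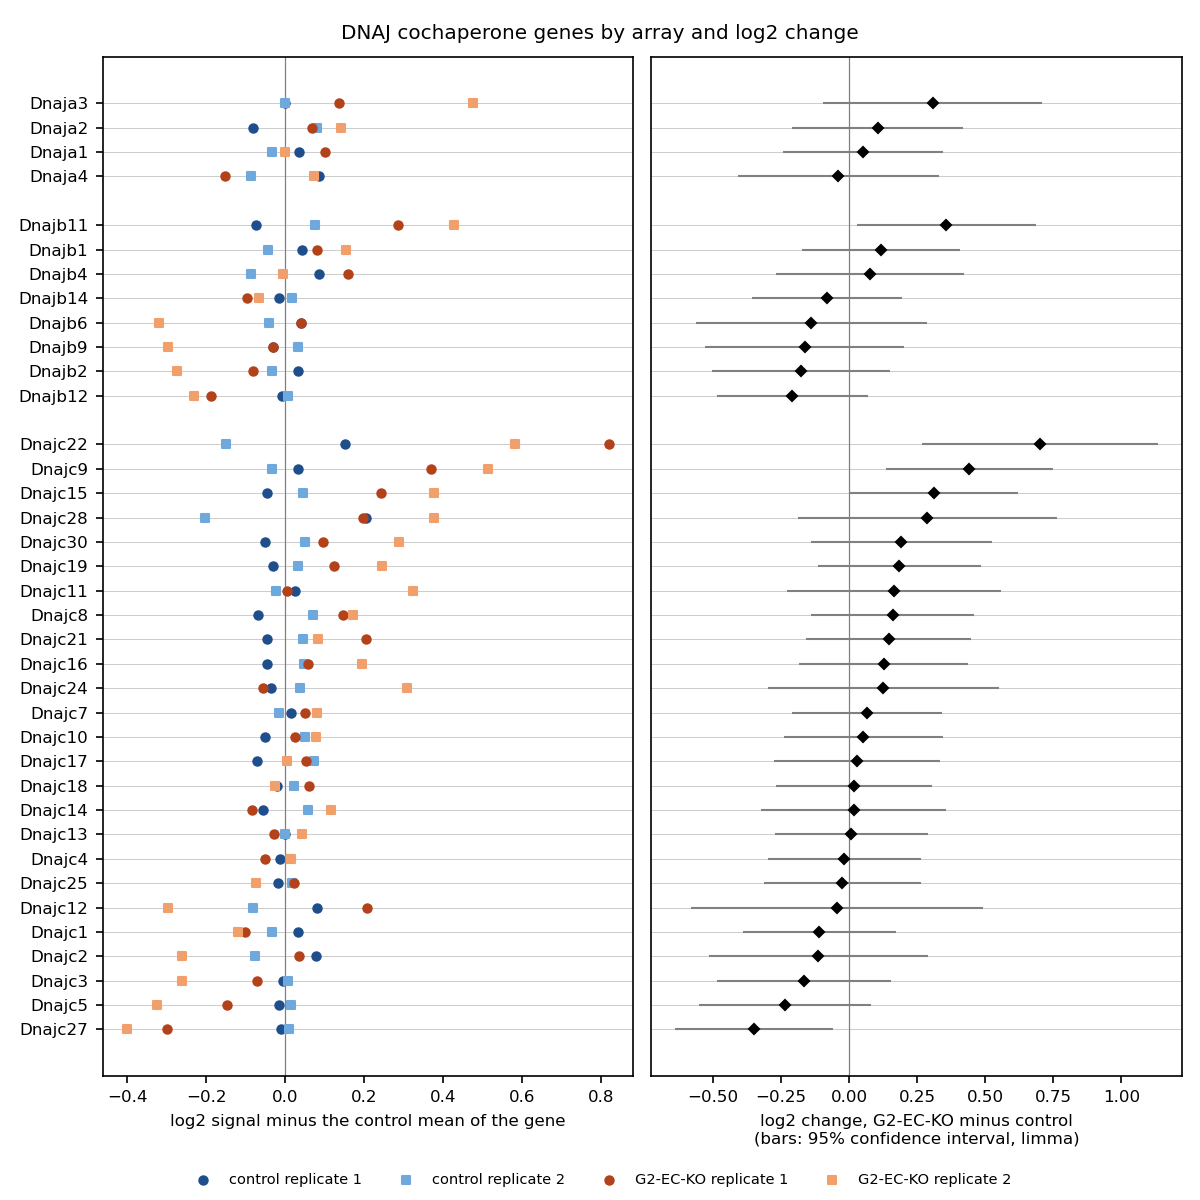
The 37 DNAJ genes tested, by class, with each array's log2 signal minus the gene's control mean (left, control in blue and G2-EC-KO in orange) and the log2 difference with its 95% confidence interval from limma (right). Dnajc22, Dnajc9, Dnajc15 and Dnajb11 have intervals above 0, Dnajc27 one below, and the others include 0.

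The regulators and partners of these chaperones, from lists drawn up for this comparison, had no gene called by limma either, and none of those in this paragraph but 1 immediate early gene, Klf6, had an unadjusted p under 0.05. Only 3 of the 6 genes in the heat shock factor list were measured well enough to be tested. Of these Hsf1, the main activator of the heat response, read 1.72 and 1.68 in control and 1.66 and 1.81 in G2-EC-KO (difference 0.039, SE 0.12). Hsf4 was dim and gave -0.48 (SE 0.20), and Hsbp1, a binder of heat shock factor, 0.16. Among 13 exchange factors and other HSP70 cochaperones 7 were above 0 and 6 below (median 0.040), with Hyou1, the large exchange factor of the endoplasmic reticulum, at 0.41, St13 at 0.25 and Bag3 at -0.21. Among 19 HSP90 cochaperones 14 were above and 5 below (median 0.13), with Cdc37, which brings kinases to HSP90, at 0.24, Ahsa1, which speeds its ATPase, at 0.26 and the muscle protein Itgb1bp2 at 0.42. Among 14 genes of the TRiC chaperonin and prefoldin, which fold actin and tubulin, 11 were above and 3 below (median 0.070), with Cct5 at 0.23, Pfdn4 at 0.32 and Pfdn6 at 0.21. Among 21 immediate early genes, which cell isolation induces, 12 were above and 9 below (median 0.018), with Klf6 at 0.56, Nr4a2 at -0.68 and Fosl1 at -0.80, each without overlap. Their median level was 5.52 and 5.63 in control and 5.79 and 6.09 in G2-EC-KO.

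Where several probes measured a member, they often did not give the same sign. Of 33 members with more than 1 tested probe, 11 (33.3%) had probes of differing sign, against 35.7% of 5089 such genes on the array, and in Dnajb1, Hsp90ab1 and Hspa4 the opposing values each exceeded their SE. The brightest probe gave a higher difference than the median of the others in 21 of the 33 (63.6%), against 65.9% of all such genes. The member median was 0.11 with 1 probe per gene, 0.045 over all 111 tested member probes, and -0.022 over the 45 that were not the brightest of their gene. Over all named genes the same 3 medians were 0.041, 0.014 and -0.046. The median thus turned sign with the choice of probe, for the members as for the array as a whole, and stayed above that of all genes in each choice.

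**Figure D5:**
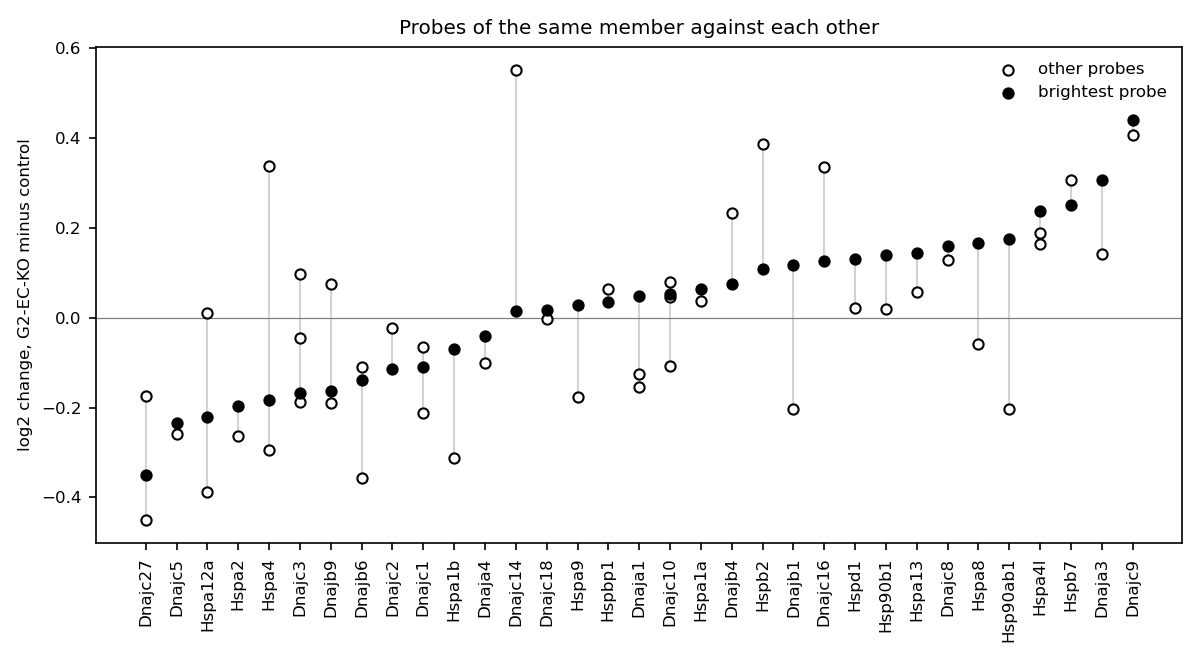
Log2 difference (vertical axis) of every tested probe of the 33 members with more than 1, ordered by the brightest probe, which is filled. Open circles are the other probes, and in 11 members the circles lie on both sides of 0.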

How the data were processed

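Cy3-labelled RNA of 4 samples was hybridised to Agilent arrays of design 014868 (annotated on mm9 per the file headers), quantified with Feature Extraction 10.7.3.1 per the file headers, 10.5 per the submitters' processing notes. The spot intensity values the authors deposited are on a linear scale, background-subtracted and detrended within each array per the file headers, with no scaling between arrays. The 4 arrays lay on 1 slide, with control at positions 1 and 2 and G2-EC-KO at 3 and 4, so position and group cannot be told apart. A deposited value table equals the median spot intensity minus the median local background plus 16, and was used as an alternative.

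From these values log2 of the processed signal minus the array's 75th percentile (1411, 1438, 1288 and 1181 in control then G2-EC-KO) was computed, without control spots and the 87 to 101 outlier spots of an array, and spots of a probe were averaged. Probes well above background on at least 2 of 4 arrays were tested, 26894 in all and 25500 of them on all 4. RefSeq (GRCm38.p6) named 26933 of 41174 probes by accession.

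Groups were compared with limma 3.58.1 (R 4.3.3), two-sided, on group alone, with p-values adjusted by Benjamini-Hochberg over the tested probes (threshold 0.05) and 2 residual and 2.58 prior degrees of freedom. With 2 arrays against 2, the smallest two-sided p of an exact permutation test is 0.333. The script was tested on simulated data. The number of arrays limits the precision.

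The members and gene lists were chosen with earlier results of these data known. Values by array were to be given for a fixed list of members, plus the 3 genes of smallest p in each subfamily and any member called, and for the other lists for up to 3 genes of smallest p. The 8 mitochondrial and 8 endoplasmic reticulum members were grouped after the values were seen. Trap1, Lonp1, Grpel1, Grpel2, Hspbp1, Dnajb14, Dnajc1, Dnajc11, Hspa12a, Dnajc2, Hspbap1, Dnajc30, Dnajc4, Dnajc8, Dnajc13, Dnajc14 and Dnajc28 were named after their values were seen. Alternatives were another background correction (normexp with an offset of 50, on the median spot signal because the files used here hold no mean signal), quantile normalization, median centring, other filters, the value table, an intensity trend, the replicate number as a block, each array left out, and other choices of probe. Protein sequences were not used here.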

Additional observations from a re-analysis of the deposited data

How the results depend on the processing

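The number of members called was 0 in every alternative run, and at an unadjusted p under 0.05 it lay between 0, without control replicate 2, and 13, without G2-EC-KO replicate 1, against 6 in the main setting and 5 with the replicate block. Over all probes 1 was called. This became 0 with a filter on all 4 arrays, with an intensity trend, with no filter on dim probes and with the replicate block, became 2 with median centring, normexp background correction and quantile normalization, stayed at 1 with the value table, and ranged from 0 to 8 with 1 array left out (8 without control replicate 1). The replicate numbers are not said to pair samples, and deviations of same-numbered arrays correlated at 0.044 over 26883 probes.

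The median member difference, 0.11, was 0.094 with the value table, 0.13 with median centring, 0.086 with normexp correction and 0.086 with quantile normalization, and 0.074 to 0.086 with 1 array left out. The mean over the probes of a gene gave 0.070, and the choices added after seeing the data gave 0.045 over all tested member probes and -0.022 over probes that were not the brightest.

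Of the 66 members tested, 42 kept their sign in every alternative run. With the probes of a gene averaged, Dnaja1 gave -0.077, Dnajb1 -0.043, Hsp90ab1 -0.014 and Hspa9 -0.075. The value table gave -0.0084 for Dnajc13, -0.00092 for Dnajc14 and 0.033 for Hspa5, median centring 0.00082 for Dnajc4 and 0.017 for Hspa5, normexp correction -0.0099 for Dnajc13, -0.0024 for Dnajc14, 0.025 for Hspa5 and -0.0048 for Hspb1, and quantile normalization -0.016 for Hspa1a. With 1 array left out, 22 spanned 0: Dnaja1 (-0.0016 to 0.10), Dnaja4 (-0.15 to 0.072), Dnajb4 (-0.0100 to 0.16), Dnajb6 (-0.32 to 0.041), Dnajc12 (-0.30 to 0.21), Dnajc13 (-0.028 to 0.043), Dnajc14 (-0.085 to 0.12), Dnajc17 (-0.045 to 0.100), Dnajc18 (-0.025 to 0.061), Dnajc2 (-0.26 to 0.035), Dnajc24 (-0.057 to 0.31), Dnajc25 (-0.075 to 0.022), Dnajc4 (-0.051 to 0.014), Hspa12a (-0.68 to 0.24), Hspa1a (-0.11 to 0.23), Hspa1b (-0.26 to 0.13), Hspa5 (-0.11 to 0.100), Hspa9 (-0.077 to 0.13), Hspb1 (-0.0040 to 0.043), Hspb3 (-0.013 to 1.17), Hspbap1 (-0.044 to 0.42) and Hsph1 (-0.18 to 0.41). No member was called in any alternative, where the smallest adjusted p from limma was 0.134. With 2 arrays in a group the 95% confidence interval of a member reached a median of 0.32 to either side.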
